A study of Mus musculus with 40 samples.

Results

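The long H3K27me3 domains of control oligodendrocyte progenitor cells (OPCs) were the 951 autosomal regions obtained by pooling and merging every broad H3K27me3 peak of at least 15000 bp in the 5 control libraries. They were 951 of 78803 merged control H3K27me3 regions. The remaining 77852 regions, called shorter regions below, had a median length of 0.796 kb, against 22.0 kb for the long domains. Length and presence in control lists chose the members, so control values over all 951 domains are given as a description, without a test. The measurements not used for the choice were the peak lists of the K27M libraries, the H3K4me3 lists, and each control list over domains defined from the other 4.

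ChIP-seq of H3K27me3 and of H3K4me3, a mark of active or poised promoters, was available for 5 control cultures and their 5 matched K27M cultures, from the brainstem (cultures 59 and 61) and the dorsal telencephalon (cultures 59, 60 and 61). The labels name the telencephalon cultures cortex. K27M cells came from AMGFAP-Cre;K27M mice, in which Cre under a human *GFAP* promoter switches on the H3.3 K27M mutation at the endogenous *H3-3a* locus in neural stem and progenitor cells, and control cells came from littermates without it. Brain tissue of mice of postnatal day 5 to 7 was pooled by region and genotype, so that a culture represents several pups. OPCs were captured on anti-PDGFRa plates, grown in a proliferation medium and collected before differentiation, in both genotypes alike. The peak lists hold no read counts, and the depth of a library is known only from the study's sequencing summary. The precision of the lists is given only by the spread between cultures. Cultures of the same number from the brainstem and telencephalon may share litters.

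H3K27me3 is deposited by Polycomb repressive complex 2 (PRC2) and keeps genes silent, above all developmental regulators whose promoters lie in CpG islands. The mark is recruited to CpG-rich DNA and spreads from there into flanking chromatin, which gives long domains over gene clusters such as the Hox genes. The K27M histone interferes with PRC2, and mutant cells are known to lose most H3K27me3 while keeping it at some CpG islands.

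Sequences from both ends of the range of outcomes are shown to make the difference in base composition visible. Each is the 200 bp window outside annotated exons that holds the most CpG dinucleotides in its domain, from RefSeq GRCm38 (mm10), plus strand, 5′ to 3′, with CpG in capitals. These 3 windows come from the domains with the highest coverage in the K27M library that covered them least:
Prdm8 domain, chr5:98181336-98181535: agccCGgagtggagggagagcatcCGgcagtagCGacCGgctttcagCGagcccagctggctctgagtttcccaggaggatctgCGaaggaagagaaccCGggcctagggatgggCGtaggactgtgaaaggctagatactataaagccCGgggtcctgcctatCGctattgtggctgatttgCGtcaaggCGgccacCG
Ebf3 domain, chr7:137314480-137314679: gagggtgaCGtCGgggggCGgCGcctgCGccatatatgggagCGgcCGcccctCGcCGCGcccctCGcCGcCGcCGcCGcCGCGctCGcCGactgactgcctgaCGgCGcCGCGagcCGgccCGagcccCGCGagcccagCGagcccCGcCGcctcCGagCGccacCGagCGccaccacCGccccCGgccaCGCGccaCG
Cdkn2a domain, chr4:89294119-89294318: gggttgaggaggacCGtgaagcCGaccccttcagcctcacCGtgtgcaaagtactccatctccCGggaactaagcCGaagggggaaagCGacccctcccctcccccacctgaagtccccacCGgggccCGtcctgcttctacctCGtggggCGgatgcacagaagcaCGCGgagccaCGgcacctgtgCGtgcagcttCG
The next 3 windows come from the longest domains without any K27M peak:
Slfn3 domain, chr11:83217922-83218121: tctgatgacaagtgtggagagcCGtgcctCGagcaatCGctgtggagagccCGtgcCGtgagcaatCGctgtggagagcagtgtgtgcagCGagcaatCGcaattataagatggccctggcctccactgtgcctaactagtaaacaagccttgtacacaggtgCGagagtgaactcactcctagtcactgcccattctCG
Lrrc37a domain, chr11:103504707-103504906: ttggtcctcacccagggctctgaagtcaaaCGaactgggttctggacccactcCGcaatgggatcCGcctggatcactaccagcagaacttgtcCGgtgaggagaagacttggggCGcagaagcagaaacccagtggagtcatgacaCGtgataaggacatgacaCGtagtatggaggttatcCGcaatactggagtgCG
Vmn1r54 domain, chr6:90247367-90247566: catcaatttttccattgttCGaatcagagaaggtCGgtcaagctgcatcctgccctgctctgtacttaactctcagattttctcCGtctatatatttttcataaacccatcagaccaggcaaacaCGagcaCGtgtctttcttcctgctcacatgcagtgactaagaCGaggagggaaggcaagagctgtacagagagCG
The windows held 13, 39 and 15 CpG dinucleotides in the *Prdm8*, *Ebf3* and *Cdkn2a* domains. They held 10, 9 and 7 in the *Slfn3*, *Lrrc37a* and *Vmn1r54* domains. Over whole domains the corresponding densities were 25.2, 41.5 and 14.5 CpG per kb, against 7.73, 6.91 and 4.16 CpG per kb.

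The domains covered 28.0 Mb, or 1.14% of the autosomes, and ranged up to 419 kb. The control lists contributed unequally. Long peaks numbered 643 and 353 in brainstem controls 59 and 61, and 189, 500 and 682 in telencephalon controls 59, 60 and 61. A long peak was present in every control list at 137 domains and in a single list at 410, of which 175 came from telencephalon control 61 and 153 from brainstem control 59. Telencephalon culture 59 stood apart in both genotypes, with the fewest peaks of its genotype (12526 in the control and 3941 in the K27M library, against medians of 33571 and 6692). In the study's sequencing summary its H3K27me3 libraries had the most reads of their genotype. Results below are therefore also given per culture. At the length limit, the 3 peaks just above 15000 bp lay over *Nefh*, *Atf3* and *Cacng2*, with median K27M coverages of 69.0%, 25.5% and 22.2%. The 3 just below it held no protein-coding gene start and had medians of 0%, 14.4% and 39.4%.

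The cell type was checked with 5 OPC markers. None of the 5 (*Pdgfra*, *Cspg4*, *Olig1*, *Olig2* and *Sox10*) lay in a long domain or had promoter H3K27me3 in any control. A promoter H3K4me3 peak was present in all 10 libraries at 4 of the 5. No H3K4me3 library marked 3 of 4 astrocyte, 3 of 4 microglial, 3 of 4 endothelial and 4 of 4 myelin genes, whereas 2 of 4 neuronal genes (*Snap25* and *Syt1*) were marked in all libraries. The remaining members of the first 3 lists were marked in part. Astrocyte *Gjb6* was marked in 4 control and 5 K27M libraries, microglial *P2ry12* in 3 and 5, and endothelial *Cldn5* in 3 and 2. Neuronal *Stmn2* was marked in 4 and 4.

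K27M cultures had H3K27me3 peaks over part of the long domains, and less of them than controls. Coverage, the share of summed domain length under H3K27me3 peaks, was 44.3% and 47.0% in brainstem K27M cultures 59 and 61. It was 31.4%, 46.8% and 41.6% in telencephalon K27M cultures 59, 60 and 61. Telencephalon 59 was the low value, and the other 4 libraries lay between 41.6% and 47.0%. In the controls that defined the domains, the coverages were 86.2%, 67.0%, 48.0%, 79.6% and 89.4% in the same order.

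To compare genotypes without using a control list to choose its own domains, the domains were rebuilt for each pair from the other 4 control lists, which gave 799 to 951 domains. Every domain was still chosen from control lists, and none from K27M lists, which favors higher coverage in controls. The other comparisons over held-out regions below share this limit. Over these held-out domains, coverage in brainstem 59 was 48.6% in K27M and 83.9% in the control. It was 46.9% and 65.6% in brainstem 61. In telencephalon 59, 60 and 61 it was 31.4% and 48.0%, 46.7% and 78.6%, and 48.5% and 87.0%. K27M was below its control in 5 of 5 pairs, although the highest K27M values lay just above the control of telencephalon 59. Coverage averaged 44.4% ± 7.32 in K27M and 72.6% ± 16.0 in controls (SD, n = 5), a mean difference of −28.2 percentage points ± 9.94 (exact two-sided sign-flip permutation test, p = 0.0625). This is the smallest p that 5 pairs allow, so that none of the sign-flip tests below can pass 0.05. Without pairing by culture, with genotypes exchanged within regions, the exact permutation p was 0.0333. That permutation takes all cultures as independent, although those of the same number may share litters. Averaged by culture number (n = 3), the exact sign-flip permutation p was 0.25, the smallest that 3 units allow.

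**Figure D1:**
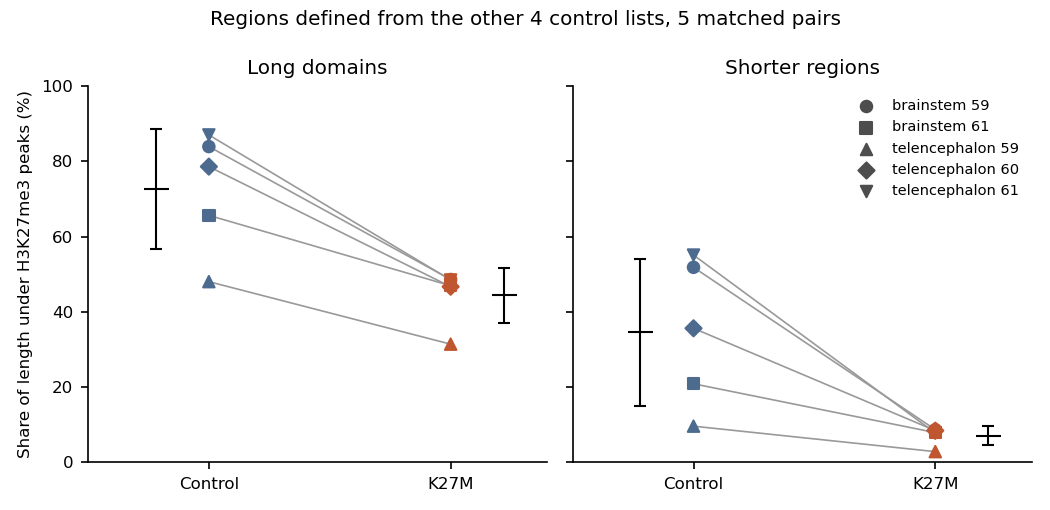
Share of region length under H3K27me3 peaks (%) in control and K27M cultures, for long domains (left) and shorter regions (right) defined from the other 4 control lists. Lines join matched cultures and black bars are mean ± SD of 5. K27M lies below control in each pair in both panels, with means of 44.4% and 72.6% in long domains and 7.15% and 34.6% in shorter regions.

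The long domains kept a larger part of their coverage than the shorter regions. The ratio of K27M to control coverage over held-out domains was 0.620 ± 0.0642, with a range of 0.557 to 0.715. Over held-out shorter regions it was 0.245 ± 0.0966, with a range of 0.142 to 0.379. The 2 ranges did not overlap. Within pairs the domains exceeded the shorter regions by 1.43 ± 0.44 on the log2 scale of this ratio, a 2.69-fold difference, in 5 of 5 pairs (exact sign-flip permutation test, p = 0.0625, and p = 0.0167 without pairing by culture). The difference was 0.90 on the log2 scale against shorter regions of 5000 to 15000 bp, and 0.87 with peaks of at least 3-fold enrichment. Within libraries, the log2 ratio of domain to shorter-region coverage ran from 0.659 to 2.32 in controls and from 2.47 to 3.46 in K27M. The highest control value was that of telencephalon 59, the control with the fewest peaks. The part of peak yield in the difference was not tested. In K27M libraries taken alone, the domains were covered by 36.1 ± 4.47 percentage points more than the shorter regions (42.2% against 6.14%, p = 0.0625 in the same exact test).

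A larger share of H3K27me3 peak length lay in the domains in K27M cultures than in controls. Held-out domains took 55.1% and 54.7% of all H3K27me3 peak length in brainstem K27M cultures and 70.5%, 54.0% and 57.3% in telencephalon K27M cultures. In the matched controls these shares were 19.9%, 36.1%, 51.3%, 29.2% and 18.8%. Total peak length in these controls, in the same order, was 101, 48.8, 26.2, 71.4 and 106 Mb, against 12.5 to 23.1 Mb in K27M libraries. Among controls the share was higher where total peak length was lower. The part of total peak length in the difference between genotypes was not tested. The mean was 58.3% in K27M and 31.1% in controls, a difference of 27.3 ± 9.20 percentage points, in 5 of 5 pairs (exact sign-flip permutation test, p = 0.0625, and 0.0167 without pairing by culture). With peaks of at least 3-fold enrichment the difference was 16.1 points. K27M libraries also held long peaks of their own, 165 to 256 per library, and 1101 of the 1120 overlapped a control domain. The median fold enrichment over input of K27M peaks was 3.01 inside domains and 2.88 outside, a difference of 0.130 ± 0.044 in 5 of 5 cultures (exact sign-flip permutation test, p = 0.0625). In the controls, whose peaks defined the domains, it was 2.79 inside and 2.47 outside, so that the contrast is not particular to K27M.

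Coverage differed widely between domains, and 4 groups were distinguished by the K27M lists alone. At 194 domains (20.4%) at least 50% of the length was covered in all 5 K27M libraries, against 0.477% of all merged control regions. These are called widely covered domains below. A peak touched the domain in all 5 K27M libraries at 665 (69.9%, against 2.56%), of which 471 were not widely covered. At 209 domains a peak was present in 1 to 4 K27M libraries. At 77 (8.10%) no base was covered in any K27M library, which was the outcome for 91.3% of all control regions. A long region offers more bases for a peak to touch than a short one, so the touched and untouched shares depend on length. Lowest control coverage exceeded highest K27M coverage at 266 domains (all control regions, 3.15%), and the opposite order was found at 0. Since control coverage chose the domains, nothing is read from that count.

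The 4 groups differed in what they contained. A CpG island of at least 500 bp, with a GC content of 55% and an observed to expected CpG ratio of 0.65, was present in 179 of the 194 widely covered domains (92.3%). Such an island was present in 49.5% of the domains touched in every K27M library but not widely covered, in 21.5% of those touched in some, and in 6.49% of those touched in none. Median CpG density, in the same order, was 19.5, 12.4, 10.5 and 7.53 per kb, with a mean of 8.28 per kb over the autosomes. The share of domains that were long in only 1 control list, in the same order, was 8.76%, 37.2%, 68.9% and 96.1%. Island content and the number of supporting control lists therefore moved together, and their parts in the outcome were not separated.

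Within domains, coverage in K27M cultures was highest on CpG islands, which were found here as overlapping 200 bp windows with a GC content of 50% and an observed to expected ratio of 0.6. In brainstem K27M cultures 59 and 61, 76.4% and 78.1% of island bases in domains were covered, against 27.9% and 31.7% of domain bases more than 5 kb from an island. In telencephalon K27M cultures 59, 60 and 61 island coverage was 69.1%, 81.5% and 78.9%, against 16.0%, 28.9% and 23.6%. The lowest island value exceeded the highest distant value by a wide margin. The mean difference was 51.1 ± 3.62 percentage points in 5 of 5 cultures (exact sign-flip permutation test, p = 0.0625).

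Mean control coverage fell less with distance. Control peaks chose these domain bases, so a flatter control curve is partly built in. From the islands outwards to 0 to 1, 1 to 2.5, 2.5 to 5, 5 to 10, 10 to 20 and over 20 kb, mean K27M coverage was 76.8%, 57.0%, 45.0%, 35.7%, 26.9%, 24.5% and 24.4%. Mean control coverage was 86.6%, 79.8%, 74.8%, 71.4%, 69.3%, 68.0% and 65.3%. Telencephalon control 59, with the fewest peaks, was at 71.3% on islands, 40.6% at 2.5 to 5 kb and 43.7% over 20 kb away. Over held-out domains the K27M to control ratio was 0.910 ± 0.0483 on islands and 0.420 ± 0.0745 more than 5 kb away, a difference of 1.13 ± 0.22 on the log2 scale, or 2.19-fold, in 5 of 5 pairs (exact sign-flip permutation test, p = 0.0625, and 0.0167 without pairing by culture). Beyond 5 kb the K27M curve was nearly flat and did not reach 0 in any library.

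**Figure D2:**
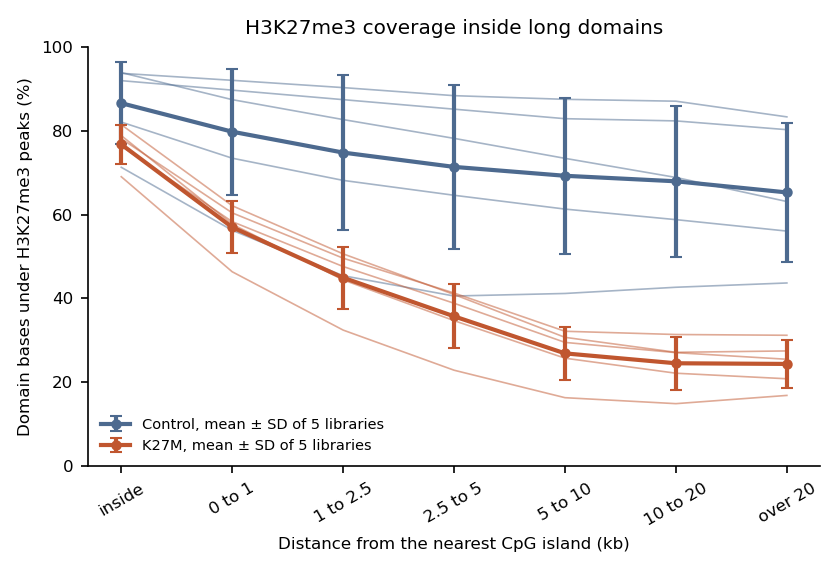
Share of long-domain bases under H3K27me3 peaks (%) by distance from the nearest CpG island (kb). Thin lines are libraries and thick lines with bars are mean ± SD of 5 per genotype. Mean K27M coverage is 76.8% on islands and 24.4% beyond 20 kb, and mean control coverage 86.6% and 65.3%. Control peaks chose the domains, which partly flattens the control curve.

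Coverage was also lower at the edges of domains than at their centres, in both genotypes. In the outermost 10% of the domains on each side, mean coverage was 21.2% ± 5.85 in K27M and 58.7% ± 22.0 in controls. At the centre, 40 to 50% of the length from an edge, it was 54.7% ± 6.22 and 81.7% ± 13.2. Edges were set by the longest control peak, which lowers the other controls and the K27M libraries there by construction, and no test was made. Longer domains were more fully covered in K27M cultures, with a mean of 29.7% ± 5.90 in 394 domains of 15 to 20 kb, 40.9% ± 6.59 at 20 to 30 kb, 45.8% ± 6.49 at 30 to 50 kb, 50.4% ± 8.22 at 50 to 100 kb and 53.5% ± 5.78 in the 19 domains of 100 kb and over. The share with a CpG island of 500 bp was 37.3% in the shortest of these groups and 78.9% in the longest. Control coverage was also higher in the longest group. In brainstem 59 and 61 and telencephalon 59, 60 and 61 it was 83.4%, 56.0%, 35.5%, 73.1% and 85.8% in the shortest. In the longest it was 89.5%, 77.4%, 65.7%, 91.2% and 98.8%. The share of domains long in a single control list was 71.6% in the shortest and 0% in the longest.

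Among the 10 longest domains, those of the Hox clusters ranked 1, 3, 5 and 6. Their homeodomain factors set position along the body axis. The HoxB domain (chr11:96100474-96519441, with *Calcoco2*, *Ttll6* and *Skap1* beside 10 *Hoxb* genes) had control coverages of 99.0%, 93.8%, 67.5%, 97.1% and 99.9%, in the order brainstem 59 and 61 and telencephalon 59, 60 and 61 used from here on. Its K27M coverages were 55.8%, 58.7%, 45.0%, 61.0% and 53.8%, all below the lowest control. The HoxC domain of 305 kb (chr15:102829765-103134810) was covered at 79.8%, 79.5%, 67.7%, 76.7% and 75.0% in K27M and at 81.8% to 99.6% in controls, also without overlap. The HoxA domain of 192 kb (chr6:52141625-52333650), which includes *Evx1*, differed from these. Its K27M coverages of 77.1%, 89.0%, 88.1%, 93.9% and 93.3% overlapped control values of 79.8%, 65.7%, 92.1%, 99.9% and 97.4%. The HoxD domain of 154 kb with *Evx2* (chr2:74637127-74790886) was covered at 74.4% to 88.8% in K27M and 76.3% to 100% in controls.

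The other 6 of the longest domains were less uniform. *Prdm16*, a zinc finger regulator of cell fate, lay in a domain of 361 kb with K27M coverages of 27.5% to 55.2% and control coverages of 46.6% to 99.4%. A domain of 242 kb inside *Skap1*, next to HoxB and without a protein-coding gene start, was covered at 21.0% to 48.6% in K27M and 63.6% to 100% in controls. The domain of the proneural factor *Neurog2* (152 kb) stood out among them, with K27M coverages of 75.9% to 91.6% against 81.6% to 99.4%. The *B4galnt2*, *Igf2bp1* and *Gip* domain had 36.2% to 54.96% in K27M, and the *Six6* domain had 25.7% to 68.8%. The lowest of the 10 was the domain with *Grb7*, *Ikzf3* (a lymphoid transcription factor) and *Zpbp2*, at 8.89% to 21.8% in K27M and 27.7% to 99.5% in controls.

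The map of peaks over the longest widely covered domain and the longest domain without K27M peaks shows how the coverage was arranged.

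**Figure D3:**
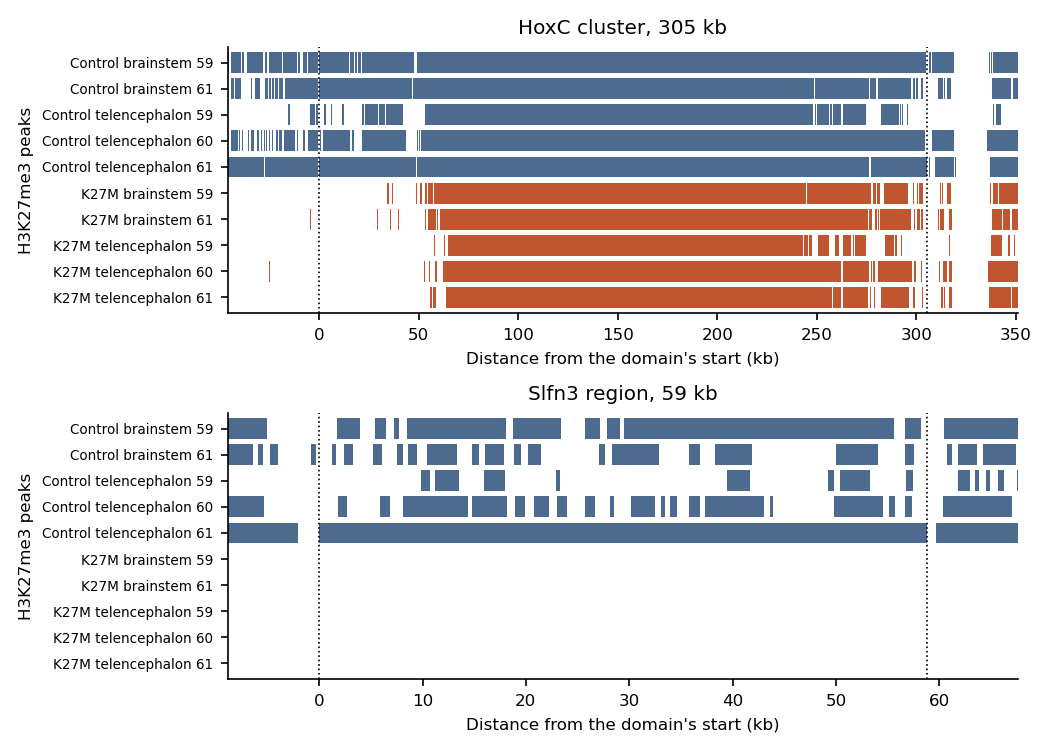
H3K27me3 peaks of the 5 control (blue) and 5 K27M (orange) libraries over the HoxC domain (top) and the domain over Slfn3 (bottom), by distance from the domain's start (kb). Dotted lines mark the domain ends. In HoxC the K27M peaks fill one contiguous interior block in every library and leave the left flank largely empty, and over Slfn3 no K27M peak is present while controls cover 20.4% to 100%.

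The 10 domains with the highest coverage in their least covered K27M library were mostly single transcription factor loci of 16.4 to 39.1 kb. They included *Pax1*, *En1*, *Lhx9*, *Tbx20*, *Lbx1* and *Onecut2*, which encode transcription factors of early patterning and organ formation. *Ebf3*, a neuronal differentiation factor, lay in a domain with K27M coverages of 98.6%, 98.7%, 95.7%, 100% and 99.8% and control coverages of 88.2%, 100%, 87.4%, 98.7% and 84.5%. *Pax1* had 95.3% to 99.7% in K27M and 97.7% to 100% in controls. At both loci the genotypes overlapped.

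At 4 of these 10, the lowest control was below 50%. The domain within *Prdm8*, a zinc finger factor of neural differentiation, was covered at 97.0% to 100% in K27M, and at 17.4%, 87.0%, 80.3%, 100% and 97.2% in controls. The domain within *Cdkn2a* (chr4:89265292-89294502), which encodes inhibitors of the cell cycle, was covered at 100%, 100%, 96.2%, 95.3% and 96.9% in K27M. Its controls were at 2.18%, 88.2%, 77.3%, 100% and 0%, so that 2 controls were nearly or fully without peaks where the 5 K27M libraries had them. H3K4me3 covered 3.27% and 1.23% of it in brainstem K27M and 1.96% to 5.89% in telencephalon K27M, against 4.54% to 13.6% in controls. A domain without a gene start on chromosome 17 (chr17:85790932-85807298) was similar, at 91.8% to 100% in K27M and 57.2%, 100%, 53.3%, 93.7% and 3.48% in controls. *En1* was covered at 39.7% in brainstem control 59, at 94.2% to 99.3% in the other controls and at 93.6% to 96.7% in K27M. Median K27M coverage exceeded the median control at 47 of the 951 domains. The share over all merged control regions was not computed, so nothing is read from this count.

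The 77 domains without K27M peaks were shorter, with a median of 17.8 kb, and 57 of them (74.0%) held no protein-coding gene start. The longest lay over *Slfn3*, a Schlafen gene of immune cells (58.8 kb, controls 82.6%, 43.6%, 20.4%, 55.7% and 100%). Of the 10 longest, the others over protein-coding genes lay at *Lrrc37a*, *Vmn1r54*, *Vmn2r80*, *Gm884* with *Lyzl6*, *Gm884* alone, *Krt26* with *Krt27*, *BC051142* and *Olfr987*. Counted after their values were seen, vomeronasal receptor genes overlapped 7 domains, of which 6 had no K27M peak and 0 were widely covered, against 77 of all 951 domains (8.10%) without K27M peaks. Olfactory receptor genes overlapped 6 domains, 3 without K27M peaks, keratin genes 8, of which 4 were without, and Schlafen genes 3, of which 2 were without. These families have many near-identical copies, so that reads may be shared between members and these counts are uncertain. Of the 77, 51 had a long peak in telencephalon control 61 and 28 in brainstem control 59, the libraries with the most long peaks. When domains were rebuilt without telencephalon control 61, 31 had no K27M peak, and when a long peak was required in at least 2 control lists, 3 had none. Both alternatives were chosen after seeing the data.

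**Figure D4:**
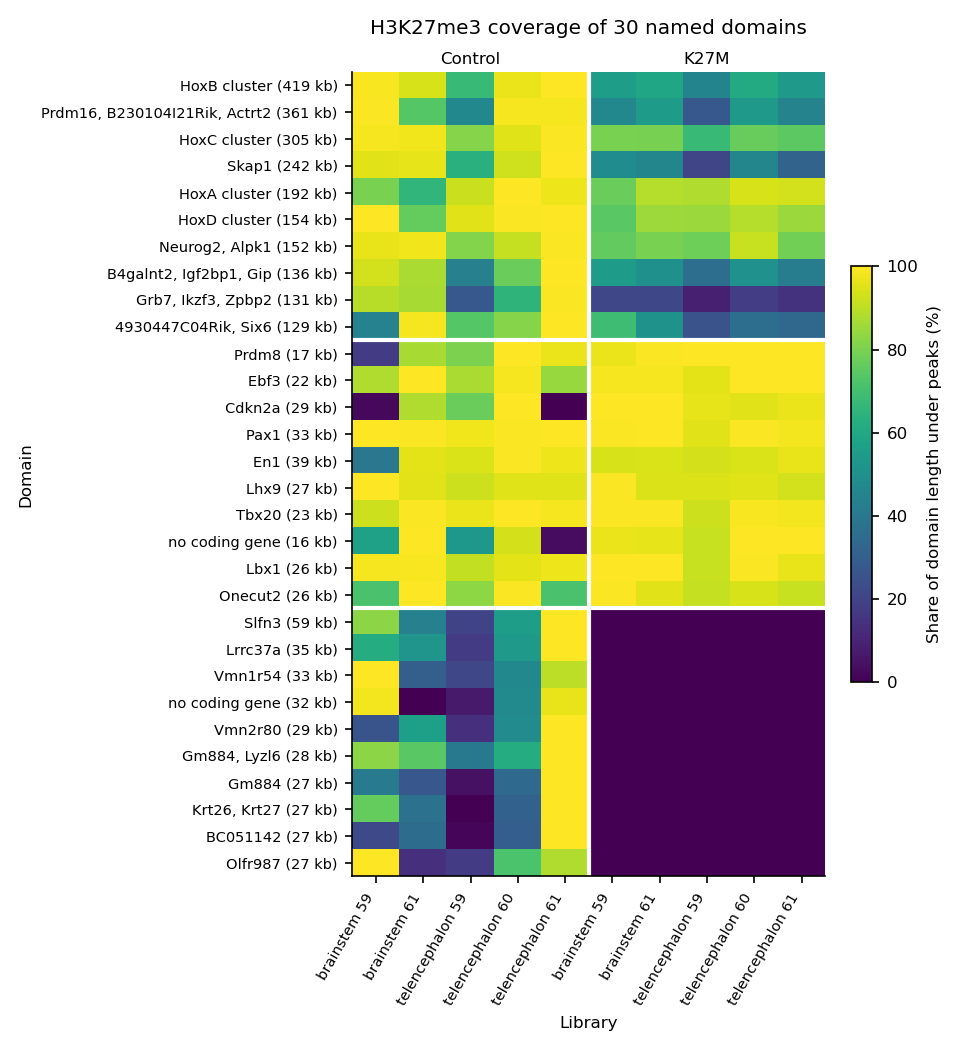
Share of domain length under H3K27me3 peaks (%, colour scale) in each control and K27M library for the 10 longest domains (top), the 10 with the highest coverage in their least covered K27M library (middle) and the 10 longest without K27M peaks (bottom). K27M columns are uneven at the top, at 91.3% or more in the middle and at 0 at the bottom, and controls in the middle block fall to 0% at Cdkn2a.

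The domains held the 5′ end of 570 of 20807 autosomal protein-coding genes (2.74%) and of 309 of 9426 long non-coding genes, while 499 domains (52.5%) held no protein-coding start. Of 243 listed factors, 185 (76.1%) lay in 141 domains, and 136 of the 185 lay in widely covered domains, against 208 of all 570 genes in domains (36.5%). In domains without K27M peaks lay 0 of the 185 and 22 of the 570. Promoter H3K27me3 was present in all 5 K27M libraries at 168 of the 185 (90.8%), against 416 of all 570 genes in domains (73.0%) and 5.44% of all autosomal protein-coding genes.

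The share inside domains varied between the gene lists. These lists are selections and not whole families, so counts here and below are of listed genes. The homeobox genes *Mnx1* and *Pdx1*, for example, lay in domains and were not listed. All 39 Hox genes were inside, 29 of them in widely covered domains. Of the LIM homeobox genes, which specify neuron classes, 11 of 12 were inside, and *Lhx6*, a factor of cortical interneurons, had K27M coverages of 82.0%, 82.7%, 73.7%, 80.9% and 74.9% against control coverages of 72.9% to 99.8%. *Lhx5* was at 46.4% to 76.4% and *Lhx8* at 53.7% to 72.4% in K27M. Other homeobox genes were inside in 65 of 83 cases, Gata, Hand and Tal genes in 8 of 9, Pax genes in 8 of 9, Forkhead genes in 17 of 23 and zinc finger patterning genes in 12 of 17.

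Among the Forkhead genes, the floor plate and endoderm factor *Foxa2* was covered at 90.9%, 91.7%, 82.0%, 86.9% and 79.2% in K27M and at 91.7% to 99.1% in controls. *Foxd1* had 56.6% to 76.8% and *Foxb1* 65.4% to 71.2% in K27M. T-box genes were inside in 8 of 13 cases, and all 8 were in widely covered domains, with *Tbx3*, a limb and heart factor, at 51.8% to 70.4%, *Tbx5* at 55.4% to 81.2% and *Tbx15* at 63.8% to 69.5%. Of the bHLH lineage genes, 14 of 29 were inside, among them *Twist1*, a mesenchymal factor, at 53.4% to 83.2% and *Ptf1a*, a factor of inhibitory neurons, at 35.0% to 53.1%. Of 9 listed Sox genes 3 were inside, *Sox1*, *Sox14* and *Sox17*. *Sox1*, a neural progenitor factor, had uneven K27M coverages of 0%, 3.70%, 1.37%, 53.2% and 62.2%, whereas *Sox17*, an endoderm factor, had 80.1% to 92.9%.

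Signalling genes were rarer. Of 19 Wnt ligands 5 were inside, and of these *Wnt1* alone lay in a widely covered domain. *Wnt3a* had K27M coverages of 39.2%, 39.2%, 19.0%, 40.1% and 33.1% and control coverages of 26.6% to 100%. *Bmp4* and *Gdf6* were the 2 of 21 BMP and TGF-beta family genes, with 26.3% to 88.3% and 49.4% to 80.7% in K27M. *Ihh* and *Fgf3* were the 2 of 23 FGF and hedgehog ligands, *Grin2b* and *Htr7* the 2 of 46 neurotransmitter receptor genes, and *Cdkn1c*, a cell cycle inhibitor, the 1 of 7 CDK inhibitors by its 5′ end. *Cdkn1c* was covered at 9.72%, 21.6%, 5.08%, 16.5% and 28.3% in K27M. Its control coverages of 93.3%, 18.5%, 13.0%, 97.5% and 94.7% were split between high and low libraries. *Cdkn2a* was not counted, since its 5′ end lies just outside its domain.

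Of the glial genes, 0 of 17 OPC, 0 of 10 myelin, 0 of 8 astrocyte and 0 of 6 microglial genes lay in a domain. With 2.74% of all genes inside and lists this short, nothing is read from these counts. Of the neuronal genes 3 of 11 were inside, *Slc17a6* and *Slc17a7*, which load glutamate into synaptic vesicles, and the neurofilament gene *Nefl*. *Slc17a6* was in a widely covered domain, at 77.0% to 88.3% in K27M, *Slc17a7* was at 44.7% to 77.6% and *Nefl* was at 14.9% to 39.3%. *Flt1*, a VEGF receptor, was the 1 of 6 endothelial genes, at 47.4% to 65.9%.

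**Figure D5:**
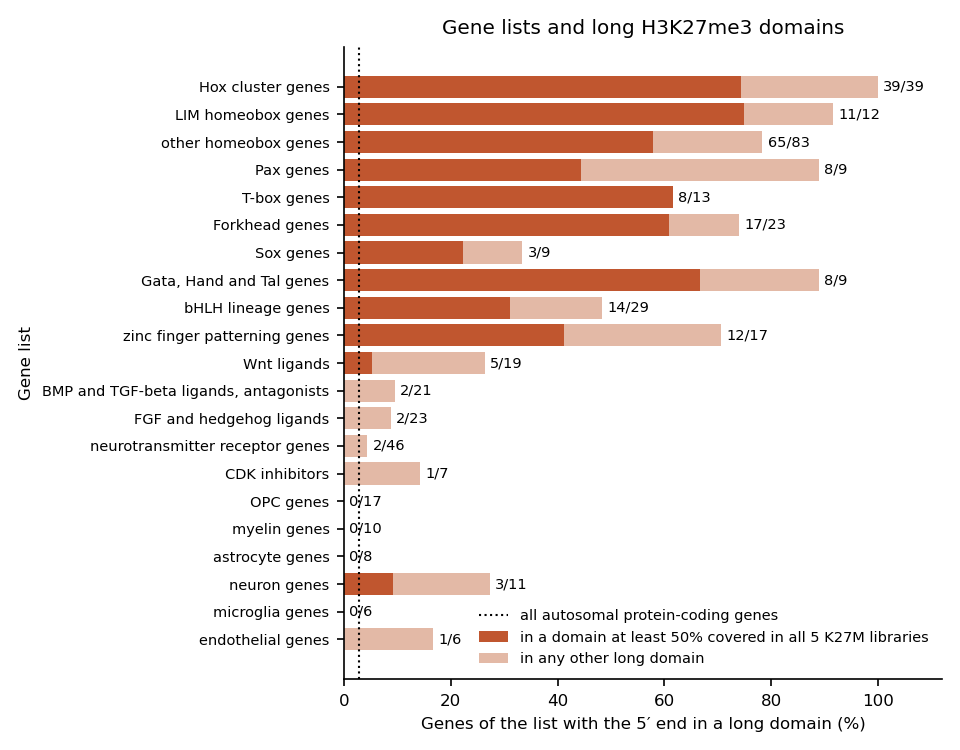
Percent of each gene list whose 5′ end lies in a long domain, with the part in widely covered domains (dark) and in other long domains (light). Numbers beside bars are genes inside over genes measured and the dotted line is the 2.74% of all autosomal protein-coding genes. Homeobox, Pax, Gata and Forkhead lists are mostly inside, and OPC, myelin, astrocyte and microglial lists are at 0.

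Transcription factor content and CpG islands coincided, since 140 of the 141 domains with a listed factor held an island of 500 bp. The 2 could be separated in the other direction. Mean K27M coverage was 71.1% ± 4.81 in the 140 domains with a factor and an island, 45.4% ± 8.53 in the 322 with an island and no listed factor, and 24.9% ± 5.79 in the 488 with neither. In control libraries the coverages of the domains with neither were 85.3%, 54.99%, 37.8%, 70.5% and 85.9%. The bases more than 5 kb from an island followed the same order in K27M, at 46.7% ± 7.90, 31.9% ± 8.37 and 25.0% ± 5.79, and on the islands themselves coverage was 94.6% ± 2.80 with a factor and 82.4% ± 7.27 without. Controls had the same order, at 76.8% ± 12.7, 71.5% ± 20.5 and 66.9% ± 20.6 on the distant bases. On islands the controls were at 94.0% ± 3.48 with a factor and 88.0% ± 11.4 without. These values are over cultures, and domains with a factor were also longer and long in more control lists (11.4% in a single list, against 33.5% and 58.4%).

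H3K4me3 overlapped the domains at a low level. It covered 3.60% and 2.07% of domain length in brainstem K27M cultures and 1.56%, 2.93% and 3.24% in telencephalon K27M cultures, against 3.16%, 2.71%, 1.19%, 5.05% and 5.30% in the matched controls. K27M was lower in 3 of 5 pairs, with a mean difference of −0.80 ± 1.25 percentage points (exact sign-flip permutation test, p = 0.312). The high values were those of telencephalon controls 60 and 61, whose H3K4me3 libraries have the highest shares of duplicate reads in the sequencing summary, and the part of this in the difference was not tested. Among the 570 protein-coding genes in domains, 168 (29.5%) had promoter H3K4me3 in all 5 controls, against 55.8% of all genes, and 140 had it in none. Both marks were present in the same culture at the promoters of 26.0% to 71.1% of the 570 genes in controls and 25.6% to 52.6% in K27M, with the lowest value of each in telencephalon 59. Control H3K27me3 chose the domains and was present at 83.7% to 98.2% of these promoters in controls. No share over all genes was computed for both marks or for the 140 genes, so nothing is read from these values. In brainstem K27M culture 59, H3K4me3 covered 31.5% of the HoxA domain and 14.8% of HoxB, against 16.0% and 1.56% in its control. In brainstem culture 61 it covered 19.6% and 6.45% in K27M and 22.2% and 5.30% in the control, so that K27M was higher in both brainstem pairs in HoxB and in 1 of the 2 in HoxA. In telencephalon cultures 59, 60 and 61, HoxA was covered at 0.884%, 2.26% and 2.05% in K27M and at 0.960%, 8.97% and 12.1% in controls, lower in K27M in 3 of 3 pairs. HoxB was covered at 0.246%, 0.502% and 0.7003% in K27M and at 0%, 1.25% and 0.316% in controls, without a common direction.

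Region of origin was visible at a few domains, named after their values were seen. *Irx2*, an Iroquois homeobox gene of tissue patterning, lay in a domain (chr13:72614717-72645653) with 0% in all brainstem cultures of both genotypes, 73.7%, 98.5% and 83.9% in telencephalon controls and 64.8%, 70.4% and 75.2% in telencephalon K27M. A domain at *Skap2*, near HoxA (chr6:51990653-52012646), was at 0% in brainstem cultures of both genotypes and at 75.7%, 64.3% and 90.2% in telencephalon K27M against 81.6%, 100% and 58.7% in the controls. *Emx2*, a forebrain homeobox gene, had its coverage mainly in the brainstem, at 98.4% and 99.5% in brainstem controls and 97.8% and 96.5% in brainstem K27M. In telencephalon cultures it was at 0%, 32.8% and 2.42% in controls and 0%, 81.1% and 0% in K27M. *Pax3*, a dorsal patterning factor, split the brainstem controls, with 90.3% in culture 59 and 6.31% in culture 61, while brainstem K27M cultures were at 3.20% and 5.39%. Its telencephalon values were 89.0%, 94.7% and 100% in controls and 70.6%, 78.2% and 75.0% in K27M. No test of the regional difference was made, since the control values chose these domains.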

How the data were processed

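Peak lists of 20 ChIP-seq libraries (10 for H3K27me3, 10 for H3K4me3) were used, and the inputs and other assays of the study were left aside. Alignment to mm10 by the authors used BWA 0.7.17-r1188. They called peaks with MACS2 2.2.7.1, each library with its own input, as broad peaks with a cutoff of 0.1 for H3K27me3, without pooling replicates. Spike-in chromatin of Drosophila was not used in calling. The deposited files give the fold enrichment over input as a ratio and, from the authors, the −log10 of p and of q. A base without a peak can hold signal below the threshold, and a library of lower signal to noise yields fewer and more broken peaks, which shortens domains and lowers coverage. Read counts are not part of these lists.

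Intervals were merged and intersected in Python 3.11.15 with numpy 2.4.6 and pandas 2.3.3, on autosomes. CpG islands were found in RefSeq GRCm38, the assembly of mm10. Genes came from GENCODE M21, and a promoter ran from 2000 bp upstream to 1000 bp downstream of a gene's 5′ end. All functions for intervals, domains, islands and permutations were first tested on simulated data.

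K27M and control were compared within 5 matched cultures with an exact sign-flip permutation test (two-sided, 32 arrangements). Pairing follows the study's methods, in which matched cultures were processed together. The data do not bear it out at the domains, since deviations of coverage from the group means correlated at r = −0.37 between brainstem libraries of the same number and at 0.16, 0.18 and −0.20 in telencephalon 59, 60 and 61, across 951 domains that are not independent. p-values measure the spread between cultures.

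Domains, gene lists and tests were chosen with earlier results of these data known. Named were the genes in the 10 longest domains, the 10 highest by their lowest K27M coverage, the 10 longest without K27M peaks, those at the length limit, and members of the 21 gene lists, longest domain first. Genes outside that rule were chosen after their values were seen: *Wnt1*, *Emx2* and the other genes named for a difference between regions. Some items are not reported here. Of 418 listed genes, 1 (*Htr2c*, on X) was not measured. Alternatives were other length limits, merging gaps, support by several control lists, stricter peaks, island definitions, unpaired permutation, averaging by culture number and each culture left out.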

Additional observations from a re-analysis of the deposited data

How the results depend on the processing

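None of 101 alternative values of the tests reversed in direction. A sign-flip test of 5 pairs cannot pass 0.05, so its p says nothing of stability. Without pairing by culture, the held-out coverage difference (−28.2 percentage points), the retention of domains over shorter regions (1.43 on the log2 scale), the share of peak length inside domains (27.3 points) and the retention of islands over distant bases (1.13 on the log2 scale) gave an exact permutation p of 0.0333, 0.0167, 0.0167 and 0.0167. The replicate block with brainstem numbers crossed, an alternative chosen after seeing the data, left these mean differences as they were by construction. Requiring a fold enrichment of at least 3 lowered the retention over shorter regions from 1.43 to 0.87 on the log2 scale and the share of peak length inside domains from 27.3 to 16.1 points. Against shorter regions of 5000 to 15000 bp the retention was 0.90. The H3K4me3 difference (−0.80 points) was −1.29 without brainstem culture 59 and −0.46 without telencephalon culture 60. With each culture left out in turn, these 4 ranged from −31.4 to −21.1 points, from 1.28 to 1.50, from 25.2 to 29.3 points and from 0.86 to 1.26. Averaged by culture number (n = 3), they were −28.8 points, 1.41, 26.8 points and 1.12, each with an exact sign-flip permutation p of 0.25. This is the smallest p that 3 units allow. In the 2 pairs whose K27M library had more total reads than its control, brainstem 61 and telencephalon 60, the held-out difference was −25.3 points. With duplicate reads set aside, the K27M library was the deeper one in telencephalon 60 alone, where the difference was −31.9 points.

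With each control list left out, an alternative also chosen after seeing the data, the number of domains ranged from 799 to 951, the widely covered from 188 to 207, and those without K27M peaks from 31 to 77, the lowest without telencephalon control 61. With long peaks required in at least 2 control lists, 3 domains were without K27M peaks. Counting genes with the whole body inside a domain gave 307 in place of 570, a stricter rule by construction. Depth was known from the sequencing summary and not from the lists. Beyond the pairs whose K27M library had more total reads, the part of depth in the coverage was not tested. Coverage below the peak threshold was not measured.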

Other observations

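Of the 1120 long peaks in K27M libraries, 19 lay outside the long control domains, in 9 merged regions. The region over *En2*, a homeobox gene of the midbrain and hindbrain (chr5:28151954-28181947), held a long peak in all 5 K27M libraries and was covered at 4.89% to 75.4% in controls. The region over *Nr2f1*, a nuclear receptor that patterns the cortex (chr13:78166913-78211289), held a long peak in the 3 telencephalon K27M libraries and was covered at 0% to 30.3% in controls. These regions were named after their values were seen, and no test was made.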
